A study of Mus musculus with 27 samples.

Results

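The unfolded protein response, the integrated stress response and the heat shock response of cultured microglia were followed through 37 genes, chosen by symbol from 23995 genes in the deposited table. They comprised 11 chaperones and folding enzymes of the endoplasmic reticulum (ER), 2 ER stress sensors with the transcription factor gene Xbp1, 6 genes of ER-associated degradation, 7 genes of the ATF4 type, 8 cytosolic heat shock genes and 2 mitochondrial chaperonins. All 37 were found, and all passed the filter for testing, which asked that 3 or more of the 27 libraries reach 10. Chac1 passed it through wild-type libraries alone, 8 of the 9 in which it reached 10 being stimulated. Derl3 passed it barely, and its highest value in any library was 11.6.

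The ER folds secreted and membrane proteins. When unfolded proteins collect there, the sensors IRE1 (Ern1), PERK (Eif2ak3) and ATF6 raise chaperone and degradation genes and slow translation. PERK acts by phosphorylating the initiation factor eIF2α, as do kinases that sense amino acid shortage or double-stranded RNA, and translation of the transcription factor ATF4 then increases. Heat shock factor responds to unfolded proteins of the cytosol and raises the Hsp70, Hsp90 and Hsp40 chaperones. Activated macrophages make large amounts of secreted protein, and parts of these programmes are known to be engaged in them.

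RNA came from microglia of neonatal mice, grown in mixed glial cultures of cortex, shaken off and plated again. Wild-type cells were from C57BL/6J mice, and the others from the CB2-/- strain B6.Cg-Cnr2tm1Zim, whose targeted allele is in Cnr2, the gene of cannabinoid receptor 2 (CB2). Each genotype was left unstimulated or given, for 16 h, LPS (100 ng/ml) with interferon-γ (IFNγ, 20 ng/ml), PolyI:C, or CpG (1 nmol/ml), which are ligands of Toll-like receptors 4, 3 and 9. The title names CB2 in microglial activation through these receptors as the subject. Wild-type unstimulated cells had 6 libraries and each of the other 7 groups had 3, 15 wild-type and 12 labelled CB2-/- in all. Separate animals or cultures are not named for the libraries of a group, and the spread that enters each p-value is that between libraries, which may be technical. Protocols for TruSeq and for low-input SMART-Seq2 libraries are both described, without saying which library used which.

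The labels number the libraries. The numbers were taken here as 2 series, 3012 to 3023 and 2048 to 2188, a grouping that the labels do not state. Unstimulated wild-type libraries 1 to 3 and all stimulated wild-type libraries are numbered 3012 to 3023, all libraries labelled CB2-/- 2048 to 2059, and wild-type unstimulated libraries 4 to 6 2186 to 2188. Each wild-type response was taken against unstimulated libraries 1 to 3, while libraries 4 to 6 served for the comparison of unstimulated genotypes. For stimulated cells genotype and number series are the same split and cannot be told apart. In bulk RNA, fewer cells of a type and less RNA per cell cannot be told apart either. Levels are the authors' normalised counts. Changes are log2 fold changes ± SE on a log2(value + 1) scale, and the threshold for a call was an adjusted p of 0.05 (limma, Benjamini-Hochberg, BH, over 14668 genes). On this scale the size for a low gene depends on the added 1, which draws it towards 0, and on libraries listed at 0, which can carry it past the fold of the group means. Each gene has 1 residual variance over all groups, so a wide spread in 1 group also widens the SE of comparisons between the others. Where a call was lost without a named library, the values in parentheses are the range of the log2 change over all compared libraries left out in turn. Changes without the series term take all 6 wild-type unstimulated libraries as 1 group.

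The starts of these genes were searched for elements known from each family, which only some of them held. Promoters of 31 of the 37 genes were matched by symbol in the RefSeq table (GRCm38.p6), and the 250 bases before each start were searched on both strands, overlapping matches included. The ER stress response element, CCAAT followed after 9 bases by CCACG, is the site bound by ATF6 with NF-Y. It was found in Hspa5, Hsp90b1, Calr, Pdia6, Creld2 and Derl3, and in 0.113% of all 32851 promoters. Capitals mark the element, which reads in reverse where the capitals begin with CGTGG, and Hsp90b1 has 1 in each direction. Its parts alone are common, CCAAT being in 33.8% and CCACG in 28.3% of all promoters.
Hspa5 (chr2:34772010-34772058, plus strand): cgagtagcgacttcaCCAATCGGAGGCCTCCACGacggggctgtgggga
Hsp90b1 (chr10:86705518-86705671, minus strand): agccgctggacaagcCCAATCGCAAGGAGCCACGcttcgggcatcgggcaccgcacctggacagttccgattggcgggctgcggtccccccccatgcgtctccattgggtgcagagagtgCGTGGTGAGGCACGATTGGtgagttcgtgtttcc
Calr (chr8:84847060-84847108, minus strand): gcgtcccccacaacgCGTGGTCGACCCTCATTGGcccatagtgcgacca
Pdia6 (chr12:17266476-17266524, plus strand): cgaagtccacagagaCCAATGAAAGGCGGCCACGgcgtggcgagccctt
Creld2 (chr15:88819505-88819553, plus strand): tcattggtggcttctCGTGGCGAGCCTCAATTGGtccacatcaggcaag
Derl3 (chr10:75893227-75893275, plus strand): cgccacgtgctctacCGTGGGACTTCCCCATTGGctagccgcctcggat

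The core TGATGNAA of the amino acid response element, a composite site of ATF4 and C/EBP proteins, was found in Chac1, Asns, Atf3 and Herpud1 and in 3.45% of all promoters. The longer form ATTGCATCA was in none of the 31, and in 0.167% of all. Capitals again mark the match, reversed except in Asns.
Chac1 (chr2:119351034-119351071, plus strand): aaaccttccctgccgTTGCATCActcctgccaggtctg
Asns (chr6:7693210-7693247, minus strand): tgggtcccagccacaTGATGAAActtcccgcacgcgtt
Atf3 (chr1:191183421-191183458, minus strand): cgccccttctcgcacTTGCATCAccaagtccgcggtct
Herpud1 (chr8:94386302-94386339, plus strand): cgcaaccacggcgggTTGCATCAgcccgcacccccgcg
An array of alternating GAA and TTC, 2 bases apart and at least 3 units long, is the binding pattern of heat shock factor. It was in 0.466% of all promoters and, of the 31, only in the promoter that Hspd1 and Hspe1 share, where 2 overlapping arrays form a run of 4 units. No exact array was found in the promoters of Hspa1a, Hspa1b, Hsph1, Dnaja1 and Dnajb1, the cytosolic heat shock genes matched. Arrays with a mismatched unit were not searched for, so these promoters may still hold such sites.
Hspd1 and Hspe1 (chr1:55088044-55088091, minus strand): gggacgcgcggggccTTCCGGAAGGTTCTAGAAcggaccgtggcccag
TGACG, the core of an ATF6 or CRE site, was in 14 of the 31, among them Hspa5, Atf3, Trib3, Chac1 and Asns, and in 17.8% of all promoters. These matches are letters in a window and were not tested for binding. The map of the matches shows how far each lies from its start.

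**Figure D1:**
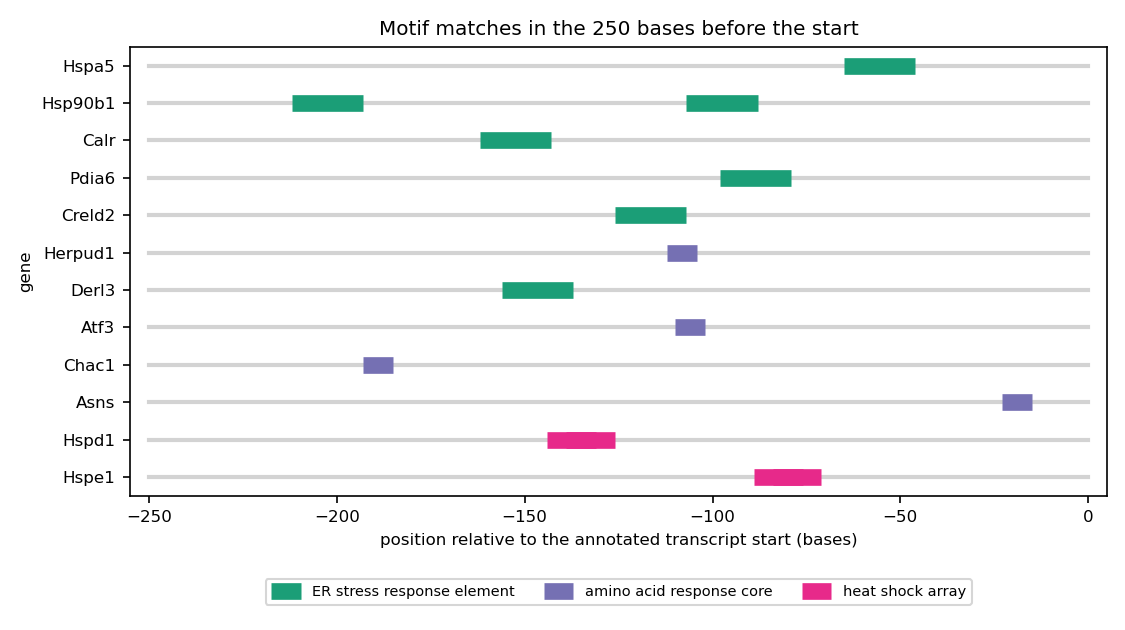
Matches in the 250 bases before the annotated start of 12 genes, plotted by distance from the start in bases, with 1 grey line per gene. ER stress response elements (green) lie in 6 promoters, amino acid response cores (purple) in 4, and the heat shock array (pink) of the shared Hspd1 and Hspe1 promoter appears once from each start.

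Summed normalised counts ran from 6341299 to 14151982 per library, and 13628 to 20643 genes were above 0. The 37 genes took 0.593 to 0.719% of the sum in wild-type unstimulated libraries 1 to 3, 1.06 to 1.11% with LPS plus IFNγ, 0.860 to 1.01% with PolyI:C and 1.37 to 1.45% with CpG. Stimulated wild-type libraries with LPS plus IFNγ or PolyI:C also had larger sums, 8403661 to 9473363 against 6506348 to 6662554 in unstimulated libraries 1 to 3. In the libraries labelled CB2-/- the 37 genes took 0.375 to 1.11%. The transcripts Gm19220, Gm26822 and Grip2 took 0.0741 to 50.8% of the sum there, most in PolyI:C library 2, 6.07 to 31.1% in wild-type unstimulated libraries 4 to 6, and at most 0.00453% in the 12 libraries numbered 3012 to 3023. Cnr2 was detected in all 12 libraries labelled CB2-/-, at 217 to 454, at 172 to 233 in the 6 wild-type unstimulated libraries and at 0 to 22 in the stimulated wild-type ones. A value per gene checks nothing where reads fall outside the deleted part, so the genotype rests on the labels, and these libraries are named by their label throughout.

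In wild-type microglia most of these stress genes rose with every stimulus. With LPS plus IFNγ 33 of 37 were higher and 1 lower, against 21.7% and 18% of all genes tested, and the median log2 change was 1.23 against 0.05. PolyI:C gave 28 higher and 2 lower (background 21.2% and 19.9%), with a median of 0.89 against -0.06. CpG gave 29 higher and 1 lower (16.5% and 19.6%), with a median of 1.10 against -0.09. Quantile scaling, which gives every library the same distribution, left 24 and 2, 21 and 5, and 29 and 1 called. The map of responses shows all 37 genes in the 6 stimulus comparisons.

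**Figure D2:**
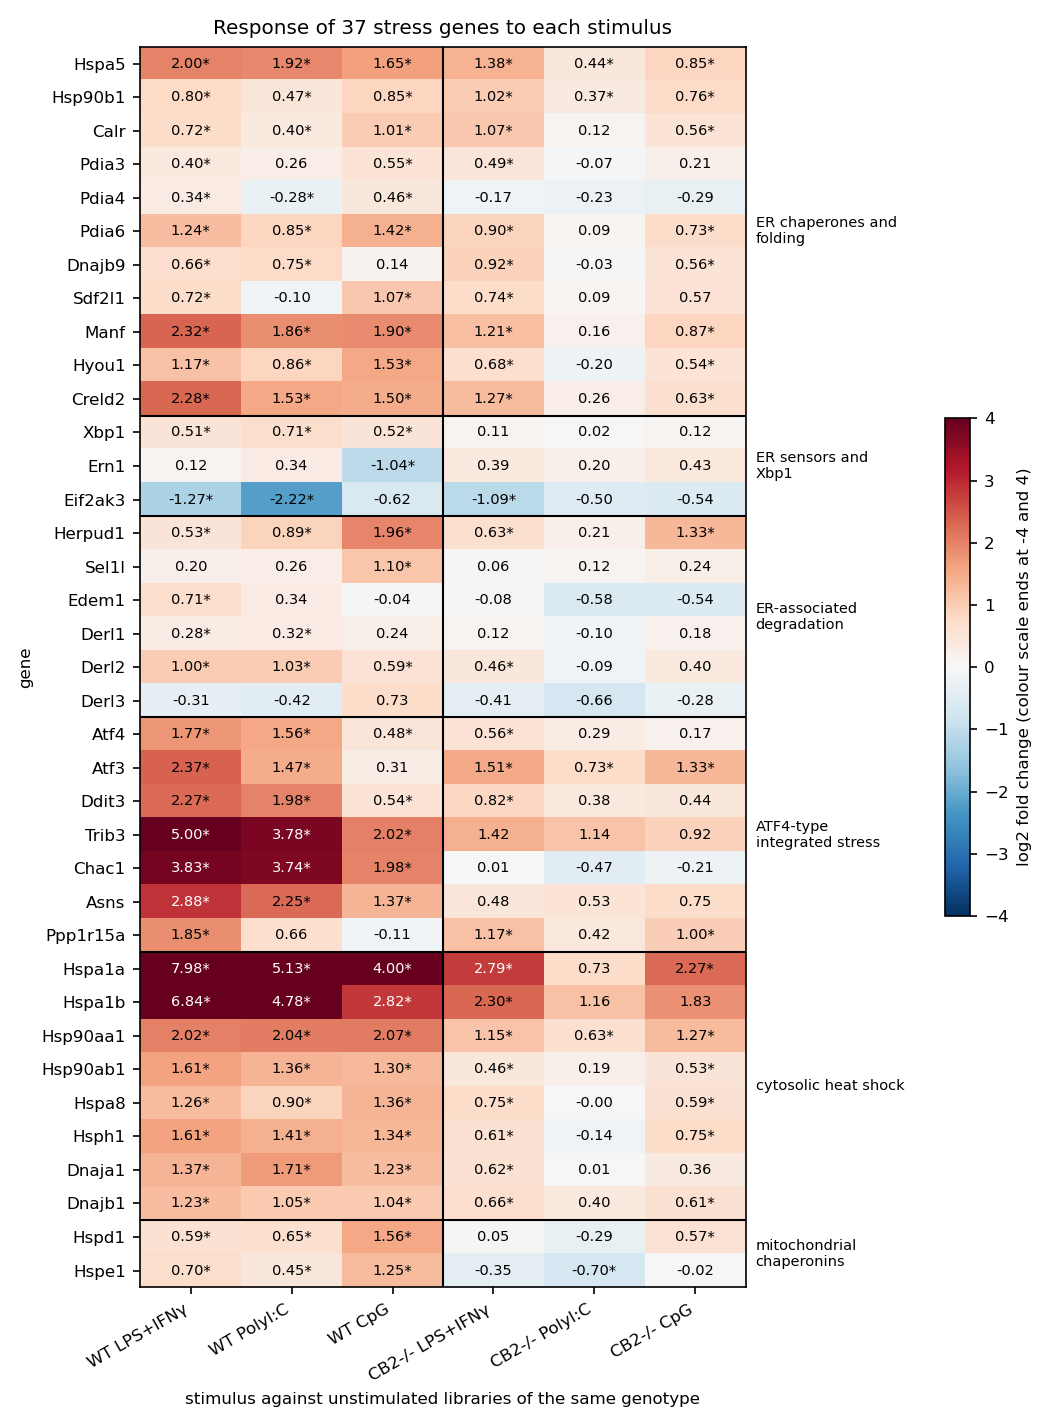
Log2 fold change of each of 37 genes (rows, by list) with each stimulus against unstimulated libraries of the same genotype (columns), printed in each cell and coloured from blue (lower) to red (higher). An asterisk marks an adjusted p under 0.05 (limma, BH), and the colour scale ends at 4, below the highest value, 7.98 for Hspa1a. The 3 wild-type columns on the left carry 33, 28 and 29 higher calls, the columns labelled CB2-/- 24, 4 and 18.

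All 11 ER chaperones and folding genes rose with LPS plus IFNγ in wild type, 8 rose and 1 fell with PolyI:C, and 10 rose with CpG. Hspa5 counts were 2075, 2777 and 2278 in unstimulated libraries 1 to 3, 9366, 9023 and 9868 under LPS plus IFNγ, 7458, 10098 and 9513 under PolyI:C and 7408, 7862 and 7006 under CpG. Hspa5 encodes BiP, the Hsp70 of the ER lumen and the usual gauge of this response. All 9 stimulated libraries lay above the 3 unstimulated ones, and its log2 changes were 2.00 ± 0.12, 1.92 ± 0.12 and 1.65 ± 0.12 (largest adjusted p 5.69e-11, limma, BH). Manf stood at 188, 243 and 297 normalised counts without stimulus, at 1280.0, 1141 and 1161 with LPS plus IFNγ, at 712, 918 and 1002 with PolyI:C and at 762, 954 and 982 with CpG. Manf is a small secreted ER protein with growth factor activity, and its stimulated libraries were likewise all higher. It changed by 2.32 ± 0.15, 1.86 ± 0.15 and 1.90 ± 0.15. Creld2 held 116, 106 and 134 normalised counts in wild-type unstimulated libraries 1 to 3, 583, 578 and 574 with LPS plus IFNγ, 226, 419 and 425 after PolyI:C and 342, 288 and 380.2 after CpG. Creld2, an ER resident of the disulfide isomerase type, had its 3 highest values in the LPS libraries, while its PolyI:C and CpG values overlapped. Its log2 changes were 2.28 ± 0.19, 1.53 ± 0.19 and 1.50 ± 0.19.

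Hyou1 counts were 556, 742 and 605 in unstimulated libraries 1 to 3, 1319, 1401 and 1549.8 under LPS plus IFNγ, 1075, 1247 and 1123 under PolyI:C and 1952, 1796 and 1733 under CpG. Pdia6 stood at 781, 899 and 844 normalised counts without stimulus, at 2101, 1902 and 1964 with LPS plus IFNγ, at 1518, 1520.1 and 1512 with PolyI:C and at 2579, 2332 and 1909 with CpG. Hyou1 is the nucleotide exchange factor of BiP and Pdia6 a disulfide isomerase, and neither had a stimulated library within the unstimulated range. Hyou1 changed by 1.17, 0.86 and 1.53 and Pdia6 by 1.24, 0.85 and 1.42 on the log2 scale. Dnajb9 held 219, 294 and 264 normalised counts in wild-type unstimulated libraries 1 to 3, 389, 417 and 415 with LPS plus IFNγ, 471, 435 and 399.7 after PolyI:C and 293, 284 and 273 after CpG. Dnajb9 is an ER J protein that acts on IRE1, and its CpG values overlapped the unstimulated ones (0.14 ± 0.13, adjusted p = 0.464, limma, BH), while LPS and PolyI:C gave 0.66 and 0.75. Pdia4 counts were 551, 794 and 635 in unstimulated libraries 1 to 3, 815, 866 and 802 under LPS plus IFNγ, 493, 556 and 569.6 under PolyI:C and 880.0, 911 and 896 under CpG. Pdia4, another isomerase, was the gene that fell with PolyI:C, by 0.28 on the log2 scale, against 0.34 and 0.46 with the other stimuli. The PolyI:C call was lost without wild-type unstimulated library 2 or 3 or PolyI:C library 1 or 2 (-0.40 to -0.13), and the LPS call was lost without wild-type unstimulated library 1 or LPS library 2 (0.22 to 0.48) or with quantile scaling (0.05) or without the series term (0.17).

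Hsp90b1 (the ER Hsp90), Calr (the lectin chaperone calreticulin) and Pdia3 (its partner isomerase) are abundant chaperones of the list, and their changes depended on scaling. Hsp90b1 changed by 0.80 with LPS plus IFNγ, 0.47 with PolyI:C and 0.85 with CpG, but by -0.21 and -0.43 for the first 2 with quantile scaling. Calr gave 0.72, 0.40 and 1.01, and -0.21 and -0.47 for the first 2 with quantile scaling. For Pdia3 the values were 0.40, 0.26 (adjusted p = 0.0797, limma, BH) and 0.55, and -0.45 and -0.55 for LPS and PolyI:C with quantile scaling. The Calr call with PolyI:C was lost without wild-type unstimulated library 1 or PolyI:C library 2 or 3 (0.28 to 0.55), and the Pdia3 call with LPS was lost without wild-type unstimulated library 1 (0.27 to 0.47). Sdf2l1, an ER lumen partner of J proteins, separated CpG from PolyI:C. Sdf2l1 stood at 135, 267 and 268 normalised counts without stimulus, at 378, 296 and 389 with LPS plus IFNγ, at 165, 227 and 212 with PolyI:C and at 529, 409 and 421 with CpG. Its log2 change was 1.07 ± 0.23 with CpG and -0.10 ± 0.23 with PolyI:C (adjusted p = 0.777, limma, BH). The LPS call (0.72) was lost without wild-type unstimulated library 1 or LPS library 1 or 3 (0.39 to 0.88).

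The sensor genes did not follow the chaperones. Eif2ak3 held 247, 252 and 240.3 normalised counts in wild-type unstimulated libraries 1 to 3, 109.5, 130.0 and 72.7 with LPS plus IFNγ, 31.9, 72.6 and 60.8 after PolyI:C and 110.0, 217 and 172 after CpG. Eif2ak3 encodes PERK, and all 9 stimulated libraries lay below the unstimulated ones. It fell by 1.27 with LPS plus IFNγ and by 2.22 with PolyI:C on the log2 scale (adjusted p 5.52e-04 and 3.72e-07, limma, BH), and the CpG value was -0.62 ± 0.27 (adjusted p = 0.0855). Ern1 counts were 441, 441 and 476 in unstimulated libraries 1 to 3, 519, 485 and 470.5 under LPS plus IFNγ, 501, 631 and 596 under PolyI:C and 137, 285 and 271 under CpG. Ern1 encodes IRE1α, the kinase and ribonuclease that splices Xbp1 RNA, and all CpG libraries lay below the unstimulated range. It fell by 1.04 with CpG on the log2 scale, against 0.12 and 0.34, not called, under LPS and PolyI:C. Xbp1 stood at 795, 844 and 952 normalised counts without stimulus, at 1238, 1205 and 1229.5 with LPS plus IFNγ, at 1336, 1450.1 and 1455 with PolyI:C and at 1239, 1198 and 1278 with CpG. Xbp1, whose spliced form drives chaperone and degradation genes, was higher in every stimulated library than in any unstimulated one, with 0.51 ± 0.10, 0.71 ± 0.10 and 0.52 ± 0.10 (largest adjusted p 2.83e-04, limma, BH). With quantile scaling the LPS and PolyI:C changes of Xbp1 were 0.09 and 0.27 and not called. It lies on chr11:5520659-5525893 (GRCm38, plus strand). A value per gene does not separate spliced from unspliced Xbp1.

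ER-associated degradation moves misfolded proteins out to the proteasome, and its genes rose in part: 4 of 6 with LPS plus IFNγ and 3 of 6 with either of the other stimuli. Herpud1 held 169, 219 and 258 normalised counts in wild-type unstimulated libraries 1 to 3, 365, 260.3 and 301 with LPS plus IFNγ, 474, 339.6 and 380.1 after PolyI:C and 1014, 672 and 836 after CpG. Herpud1, a scaffold of the degradation complex, was highest with CpG (1.96 ± 0.21, adjusted p 4.67e-08, limma, BH), and its LPS call (0.53) was lost without wild-type unstimulated library 1 or 2 or LPS library 1 or 3 (0.36 to 0.67). Sel1l counts were 958, 1094 and 921 in unstimulated libraries 1 to 3, 1092, 1268 and 1063 under LPS plus IFNγ, 1503, 1041 and 1054 under PolyI:C and 2988, 1818 and 1754 under CpG. Sel1l, the adaptor of the ubiquitin ligase, was called with CpG and not with the other stimuli (1.10, against 0.20 and 0.26), most in library 1. Derl2 stood at 324, 335 and 352 normalised counts without stimulus, at 723, 608 and 705 with LPS plus IFNγ, at 651, 589.6 and 852 with PolyI:C and at 474, 489.7 and 558 with CpG. Derl2, a derlin of the exit channel, was above the unstimulated range in all 9 stimulated libraries (1.0, 1.03 and 0.59). Edem1 held 1887, 1435 and 1689.6 normalised counts in wild-type unstimulated libraries 1 to 3, 2357, 2949 and 2874 with LPS plus IFNγ, 1741, 2496 and 2146 after PolyI:C and 1762, 1765 and 1354 after CpG. Derl1 counts were 854, 1169.8 and 1079 in unstimulated libraries 1 to 3, 1241, 1221 and 1287 under LPS plus IFNγ, 1291, 1239 and 1311 under PolyI:C and 1229, 1233 and 1169.6 under CpG. Edem1, a mannose-trimming lectin, rose with LPS plus IFNγ (0.71) but by 0.05, not called, with quantile scaling. Derl1, also a derlin, changed by 0.28 and 0.32, which turned to -0.15 and -0.13 with quantile scaling. Its LPS call was lost without wild-type unstimulated library 1 or LPS library 1 or 2 or 3 (0.15 to 0.38), and its PolyI:C call was lost without wild-type unstimulated library 1 or PolyI:C library 3 (0.19 to 0.41). Derl3, the derlin of secretory cells, did not pass 5.95 in any of these 12 libraries and gave no call.

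Genes of the ATF4 type separated the stimuli. All 7 rose with LPS plus IFNγ, 6 with PolyI:C and 5 with CpG, with median log2 changes of 2.37, 1.98 and 0.54. Chac1, counted for each stimulus, passed the filter mainly through stimulated wild-type libraries, so its rise is a description. Atf4 stood at 1009.6, 1068 and 889 normalised counts without stimulus, at 3392, 3317 and 3377 with LPS plus IFNγ, at 2800.3, 2913 and 3015 with PolyI:C and at 1265, 1314 and 1580.1 with CpG. Atf4 is the transcription factor of this response, controlled mainly in translation, so its RNA is only part of its activity. Its log2 changes were 1.77 ± 0.11, 1.56 ± 0.11 and 0.48 ± 0.11, and the CpG libraries lay between the unstimulated and the other stimulated ones. Ddit3 held 137, 183 and 127 normalised counts in wild-type unstimulated libraries 1 to 3, 605, 723 and 832 with LPS plus IFNγ, 682, 519 and 556 after PolyI:C and 209, 211 and 224 after CpG. Ddit3 encodes CHOP, a factor linked to cell death under ER stress, and lies on chr10:127290774-127296288 (GRCm38, plus strand). It changed by 2.27 ± 0.17, 1.98 ± 0.17 and 0.54 ± 0.17, the last lost without wild-type unstimulated library 1 or 3 (0.44 to 0.70). Atf3 counts were 823, 585 and 767 in unstimulated libraries 1 to 3, 3618, 3838 and 3665 under LPS plus IFNγ, 1624, 2184 and 2222 under PolyI:C and 1217, 778 and 744 under CpG. Atf3, a stress-induced factor that is also a feedback regulator of Toll-like receptor signals, rose by 2.37 and 1.47, while CpG gave 0.31 ± 0.16 (adjusted p = 0.149, limma, BH).

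Ppp1r15a (GADD34), which directs the phosphatase that reverses eIF2α phosphorylation, was called with LPS plus IFNγ and not with the other stimuli. Ppp1r15a stood at 139, 241 and 209 normalised counts without stimulus, at 659.6, 708 and 713 with LPS plus IFNγ, at 265, 303 and 349 with PolyI:C and at 89.3, 318 and 194 with CpG. Its changes were 1.85 ± 0.28, 0.66 ± 0.28 and -0.11 ± 0.28, the last 2 with adjusted p of 0.0600 and 0.798 (limma, BH). Trib3 held 0, 51.2 and 12.7 normalised counts in wild-type unstimulated libraries 1 to 3, 295, 294 and 269 with LPS plus IFNγ, 118, 108 and 141 after PolyI:C and 27.1, 48.9 and 32.8 after CpG. Chac1 counts were 0, 11.8 and 0 in unstimulated libraries 1 to 3, 36.7, 30.0 and 30.6 under LPS plus IFNγ, 42.5, 31.8 and 20.3 under PolyI:C and 4.36, 11 and 11.3 under CpG. Trib3 is a pseudokinase induced by CHOP, and Chac1 breaks down glutathione. Both had unstimulated libraries listed at 0, and their CpG libraries overlapped the unstimulated ones. Trib3 changed by 5.00 ± 0.72, 3.78 ± 0.72 and 2.02 ± 0.72, by 3.62, 2.45 and 0.92 with a pseudocount of 10, and by 2.20 for PolyI:C without unstimulated library 1. Its CpG call was lost without wild-type unstimulated library 1 or CpG library 2 or 3 (0.44 to 3.29). The ratio of the group means with LPS plus IFNγ was 13.4 for Trib3. Chac1 changed by 3.83 ± 0.71, 3.74 ± 0.71 and 1.98 ± 0.71, by 1.71, 1.64 and 0.52 with a pseudocount of 10, the last not called, and its CpG call was lost without wild-type unstimulated library 1 or 3 or CpG library 2 or 3 (1.37 to 3.21). Asns stood at 13.7, 102 and 21.2 normalised counts without stimulus, at 287, 239 and 192 with LPS plus IFNγ, at 160.4, 121 and 184 with PolyI:C and at 42.6, 121 and 108 with CpG. Asns, asparagine synthetase and a classic target of the amino acid response, rose by 2.88 ± 0.53 and 2.25 ± 0.53. Its CpG call (1.37 ± 0.53) was lost without wild-type unstimulated library 1 or 3 or CpG library 2 or 3 (0.81 to 2.21), and with a pseudocount of 10 (1.10), and unstimulated library 2 lay within the CpG range. Without the series term the CpG calls of Ddit3 (0.35), Trib3 (0.47) and Chac1 (1.45) were lost too.

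All 8 cytosolic heat shock genes rose with each of the 3 stimuli in wild type. Hspa1a held 24.0, 0 and 0 normalised counts in wild-type unstimulated libraries 1 to 3, 978, 567 and 724 with LPS plus IFNγ, 66.1, 96.7 and 164 after PolyI:C and 32.0, 49.4 and 60.4 after CpG. Hspa1b counts were 0, 15.1 and 4.80 in unstimulated libraries 1 to 3, 663, 414 and 511 under LPS plus IFNγ, 73.1, 176 and 148 under PolyI:C and 16.0, 32.9 and 56.0 under CpG. Hspa1a (chr17:34969190-34972156) and Hspa1b (chr17:34956436-34959238), neighbours on the minus strand (GRCm38), encode the inducible Hsp70 and share 52.7 and 55.8% of the 75-base windows of their longest transcripts, so reads may be split between them. Both were highest with LPS plus IFNγ, and all PolyI:C libraries lay between the CpG and the LPS ones. Hspa1a changed by 7.98 ± 0.77, 5.13 ± 0.77 and 4.0 ± 0.77, and Hspa1b by 6.84 ± 0.63, 4.78 ± 0.63 and 2.82 ± 0.63. With 2 unstimulated libraries of Hspa1a at 0 these sizes depend on the pseudocount: one of 10 gave 5.64, 2.90 and 1.90 for Hspa1a and 5.10, 3.12 and 1.44 for Hspa1b, all still called. Group means with LPS plus IFNγ had a ratio of 94.4 for Hspa1a. Without the series term the CpG calls of Hspa1a (2.22) and Hspa1b (1.04) were lost, and the Hspa1b counts of wild-type unstimulated libraries 4 to 6, 64.3, 84.3 and 26.6, overlapped the CpG ones.

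The other cytosolic heat shock genes rose from higher unstimulated levels than Hspa1a and Hspa1b. Hsp90aa1 stood at 1077, 1224 and 1065 normalised counts without stimulus, at 4781, 4808 and 4049.7 with LPS plus IFNγ, at 3529.7, 5551 and 5001 with PolyI:C and at 4208, 5031 and 4930.3 with CpG. Hsp90ab1 held 4736, 6455 and 5508 normalised counts in wild-type unstimulated libraries 1 to 3, 16930.0, 17358 and 16355 with LPS plus IFNγ, 10786, 16480.2 and 16102 after PolyI:C and 14301, 14113 and 12489 after CpG. Hspa8 counts were 9593, 12988 and 11052 in unstimulated libraries 1 to 3, 27769, 26783 and 25615 under LPS plus IFNγ, 16203, 23498 and 23498 under PolyI:C and 25359.9, 31899.7 and 28507 under CpG. Hsp90aa1 and Hsp90ab1 are the inducible and the constitutive Hsp90 and Hspa8 the constitutive Hsp70, and every stimulated library exceeded every unstimulated one for all 3. Their log2 changes were 2.02, 2.04 and 2.07 for Hsp90aa1, 1.61, 1.36 and 1.30 for Hsp90ab1, and 1.26, 0.90 and 1.36 for Hspa8, which turned to -0.03 with PolyI:C under quantile scaling. Processed pseudogenes of these genes exist, and how the counting treated them is not given. Hsph1 stood at 375, 284 and 261 normalised counts without stimulus, at 961, 978 and 850.0 with LPS plus IFNγ, at 922, 733 and 782 with PolyI:C and at 748, 749 and 807 with CpG. Dnaja1 held 616, 853 and 784 normalised counts in wild-type unstimulated libraries 1 to 3, 2137, 1811 and 1853 with LPS plus IFNγ, 2130.2, 2624 and 2583 after PolyI:C and 1772, 1874 and 1600.1 after CpG. Dnajb1 counts were 201, 270.2 and 239 in unstimulated libraries 1 to 3, 610.3, 541 and 509 under LPS plus IFNγ, 379, 532 and 579 under PolyI:C and 625, 414 and 439.9 under CpG. Hsph1 is the exchange factor Hsp110, and Dnaja1 and Dnajb1 are Hsp40 co-chaperones. They changed by 1.04 to 1.71 on the log2 scale, Dnaja1 most with PolyI:C (1.71 ± 0.16) and Dnajb1 least with CpG (1.04 ± 0.16).

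The mitochondrial chaperonins had another order of stimuli. Hspd1 stood at 578, 852 and 773 normalised counts without stimulus, at 1156, 1194 and 952 with LPS plus IFNγ, at 1079.7, 1227 and 1104 with PolyI:C and at 1865, 2555 and 2061 with CpG. Hspe1 held 232, 282 and 268 normalised counts in wild-type unstimulated libraries 1 to 3, 429, 461 and 379 with LPS plus IFNγ, 302, 371 and 404 after PolyI:C and 615, 634 and 609.8 after CpG. Hspd1 (Hsp60) and Hspe1 (Hsp10) form the folding chamber of the mitochondrial matrix and are transcribed from 1 shared promoter, printed above, with overlapping first exons whose reads cannot be told apart without strand. All CpG libraries exceeded all LPS and PolyI:C libraries for both. Hspd1 changed by 0.59 ± 0.16, 0.65 ± 0.16 and 1.56 ± 0.16 and Hspe1 by 0.70 ± 0.16, 0.45 ± 0.16 and 1.25 ± 0.16. With quantile scaling the LPS and PolyI:C changes of Hspd1 were 0.23 and 0.27 and not called, and the PolyI:C call of Hspe1 was lost without wild-type unstimulated library 1 or PolyI:C library 2 or 3 (0.36 to 0.57) or with quantile scaling (0.39). That scaling also ended the LPS call of Herpud1 (0.48).

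Direct comparison of the stimuli in wild type divided the lists. Between LPS plus IFNγ and CpG 15 of 37 were higher with LPS and 5 lower, against 19.7% and 13.1% of all genes. All 7 ATF4-type genes were among the 15, from 1.28 for Atf4 to 2.99 for Trib3, with Ddit3 at 1.73 ± 0.17 (adjusted p 9.74e-09, limma, BH) and Atf3 at 2.06 ± 0.16. Chac1 is included as a description, having passed the filter mainly through stimulated wild-type libraries. The median of these 7 was 1.85 against 0.15 over all genes. Hspa1a and Hspa1b were also higher, by 3.98 and 4.02, and lower with LPS than with CpG were Herpud1 (-1.44), Sel1l (-0.90), Hspd1 (-0.97), Hspe1 (-0.55) and Hyou1 (-0.36). Chac1, Asns, Manf and Hyou1 lost this call without any 1 of 5, 3, 4 and 2 of the 6 compared libraries. Hspa5, called at 0.34 and lost without LPS library 1 or 3 or CpG library 1 or 3 (0.30 to 0.39), turned to -0.42 with quantile scaling, under which 11 members were higher and 15 lower and the median of all genes moved from 0.15 to -0.13.

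PolyI:C against CpG gave 9 higher and 12 lower of 37 (17.6% and 12.5% of all genes). Atf4 (1.07), Ddit3 (1.43), Atf3 (1.16) and Ppp1r15a (0.78) were higher with PolyI:C, as was Ern1 (1.38), and 6 of 11 ER chaperones, Eif2ak3 and both chaperonins were lower. Without CpG library 1 the Ppp1r15a value was 0.29 and not called. Sdf2l1 (-1.17), Pdia4 (-0.73) and Hyou1 (-0.67) were the lowest of those chaperones. LPS plus IFNγ against PolyI:C gave 10 higher and 0 lower (5.35% and 3.91% of all genes; 1 lower at an unadjusted limma p under 0.05), with Hspa1a (2.85), Hspa1b (2.06), Ppp1r15a (1.19) and Eif2ak3 (0.94) the highest. That count fell to 5 without LPS library 1 or PolyI:C library 1, and the Hspa1a call was lost without LPS library 1 or 3 or PolyI:C library 1 or 2 (2.54 to 3.19). The Hspa1b call was lost on leaving out any of 5 from the 6 compared libraries (1.68 to 2.31). Quantile scaling ended the calls of Manf (0.11), Edem1 (0.28) and Chac1 (1.53) between LPS and CpG, of Derl2 (0.26), Ppp1r15a (0.67) and Dnaja1 (0.03) between PolyI:C and CpG, and of Hsp90b1 (0.22), Pdia6 (0.33) and Sdf2l1 (0.73) between LPS and PolyI:C. Without the series term the same values were no longer called for Chac1 between LPS and CpG, for Derl2, Ppp1r15a and Hspa1b between PolyI:C and CpG, and for Hsp90b1, Hspa1a and Hspa1b between LPS and PolyI:C. With the batch-corrected table LPS against PolyI:C gave 11 higher and 2 lower, and for PolyI:C against CpG 15 and 12. The plot of counts by library shows these patterns for 9 genes.

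**Figure D3:**
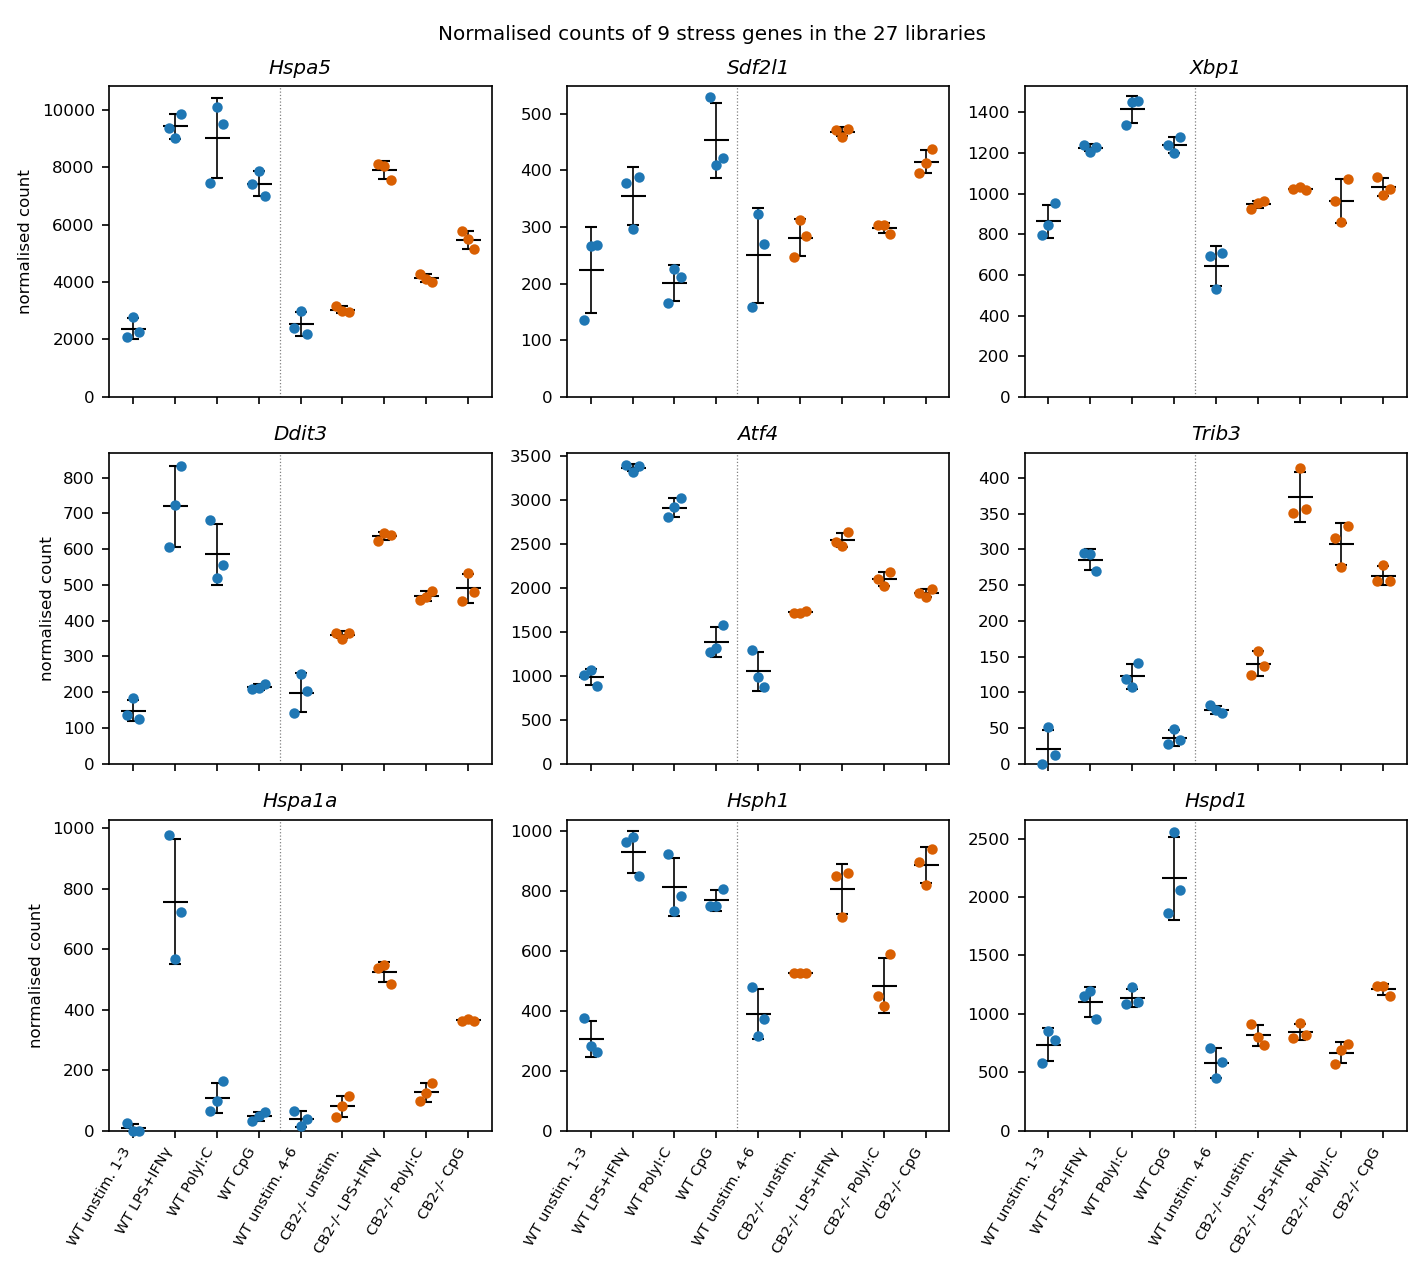
Normalised counts (vertical axes, each from 0) of 9 stress genes in 27 libraries, wild type in blue and labelled CB2-/- in orange, with the black bars giving the mean and SD of 3 libraries. The dotted line parts the 2 number series. Ddit3 and Atf4 are low with CpG in wild type (Ddit3 209 to 224, Atf4 1265 to 1580), where Hspd1 is highest (1865 to 2555), and Hspa1a peaks with LPS plus IFNγ in both genotypes.

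In the libraries labelled CB2-/- the same stimuli gave fewer calls. LPS plus IFNγ gave 24 of 37 higher and 1 lower (12.8% and 10.9% of all genes), with a median log2 change of 0.63 against 0.03. CpG gave 18 higher and 0 lower (6.82% and 7.44%; 2 lower at an unadjusted limma p under 0.05), with a median of 0.56 against 0. PolyI:C gave 4 higher and 1 lower (5.11% and 3.44%), with a median of 0.12 against 0.01, and of the 4, Hspa5, Hsp90b1 and Hsp90aa1 were chaperones and Atf3 was of the ATF4 type. With quantile scaling 2 and 2 were called there, and leaving out the first wild-type unstimulated, PolyI:C and CpG libraries, which are none of the compared ones, gave 7 and 2. By list, ER chaperones gave 10, 2 and 8 of 11 higher for LPS plus IFNγ, PolyI:C and CpG, and ATF4-type genes 4, 1 and 2 of 7. Cytosolic heat shock genes gave 8, 1 and 6 of 8, and the chaperonins 0, 0 and 1 of 2, with Hspe1 lower under PolyI:C (-0.70 ± 0.16, adjusted p 0.00489, limma, BH).

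ER chaperone levels labelled CB2-/- rose with LPS plus IFNγ and CpG and little with PolyI:C. Hspa5 in the libraries labelled CB2-/- stood at 3181, 2995 and 2945 without stimulus, 8099, 8049 and 7539 with LPS plus IFNγ, 4286, 4099.8 and 4012 after PolyI:C and 5775, 5486 and 5155 after CpG, against 2409.8, 2998 and 2198 in wild-type unstimulated libraries 4 to 6. Manf counts labelled CB2-/- were 392, 405 and 340.2 unstimulated, 834, 954 and 839 with LPS plus IFNγ, 429, 389 and 454 after PolyI:C and 680.3, 731 and 664 after CpG, and those of wild-type unstimulated libraries 4 to 6 were 273, 234 and 272. Creld2 held 128, 171 and 187 normalised counts in wild-type unstimulated libraries 4 to 6, and in the libraries labelled CB2-/- 208, 247 and 203 without stimulus, 534, 549 and 501 with LPS plus IFNγ, 289.8, 246 and 253 after PolyI:C and 364, 329 and 327 after CpG. For Hspa5 the libraries of all 3 stimuli lay above every unstimulated one. LPS and CpG gave 1.38 ± 0.12 and 0.85 ± 0.12, and PolyI:C gave 0.44 ± 0.12, a call lost without CB2-/- unstimulated library 2 or 3 or CB2-/- PolyI:C library 1 or 2 (0.42 to 0.48). Manf changed by 1.21, 0.16 and 0.87 and Creld2 by 1.27, 0.26 and 0.63, the last lost without CB2-/- unstimulated library 1 or 3 or CB2-/- CpG library 1 or 2 (0.58 to 0.72). Hyou1 in the libraries labelled CB2-/- stood at 936, 984 and 929 without stimulus, 1542, 1576 and 1462 with LPS plus IFNγ, 963, 783 and 752 after PolyI:C and 1429.8, 1460.1 and 1254 after CpG, against 700.1, 643 and 705 in wild-type unstimulated libraries 4 to 6. Pdia6 counts labelled CB2-/- were 855, 866 and 746 unstimulated, 1598, 1581 and 1426 with LPS plus IFNγ, 809, 914 and 906 after PolyI:C and 1332, 1391 and 1351 after CpG, and those of wild-type unstimulated libraries 4 to 6 were 782, 744 and 918. Hyou1 and Pdia6 had the same order of stimuli, with 0.68, -0.20 and 0.54 and with 0.90, 0.09 and 0.73. Dnajb9 held 317, 203 and 232 normalised counts in wild-type unstimulated libraries 4 to 6, and in the libraries labelled CB2-/- 379, 393 and 375 without stimulus, 719.9, 698 and 757 with LPS plus IFNγ, 359, 358 and 406 after PolyI:C and 591, 557 and 541 after CpG. Pdia4 in the libraries labelled CB2-/- stood at 1041, 1079 and 959 without stimulus, 882, 946 and 904 with LPS plus IFNγ, 821, 892 and 912 after PolyI:C and 904, 871 and 756 after CpG, against 875, 820.2 and 788 in wild-type unstimulated libraries 4 to 6. Dnajb9 rose with LPS plus IFNγ and CpG (0.92 and 0.56), and all stimulated Pdia4 libraries lay below the unstimulated ones without a call (-0.17, -0.23 and -0.29). Calr and Hsp90b1 changed by 1.07 and 1.02 with LPS plus IFNγ.

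Sensor and degradation genes gave few calls in these libraries. Xbp1 counts labelled CB2-/- were 926, 952 and 962 unstimulated, 1022, 1031 and 1019 with LPS plus IFNγ, 961, 858 and 1074 after PolyI:C and 1079, 992 and 1021 after CpG, and those of wild-type unstimulated libraries 4 to 6 were 692, 529 and 709. Eif2ak3 held 224, 227 and 253 normalised counts in wild-type unstimulated libraries 4 to 6, and in the libraries labelled CB2-/- 174, 182 and 279.5 without stimulus, 86.8, 100.2 and 104 with LPS plus IFNγ, 153, 158 and 128 after PolyI:C and 144, 122 and 162 after CpG. Ern1 in the libraries labelled CB2-/- stood at 549.9, 638 and 566 without stimulus, 726, 857 and 715 with LPS plus IFNγ, 737, 617 and 663 after PolyI:C and 800.1, 745 and 813 after CpG, against 634, 574 and 622 in wild-type unstimulated libraries 4 to 6. Xbp1 changed by 0.11, 0.02 and 0.12, none called, and Eif2ak3 fell by 1.09 on the log2 scale with LPS plus IFNγ (adjusted p 0.00422, limma, BH). Herpud1 counts labelled CB2-/- were 105, 97.2 and 109 unstimulated, 148, 154 and 184 with LPS plus IFNγ, 125, 156 and 88.8 after PolyI:C and 292, 261 and 234 after CpG, and those of wild-type unstimulated libraries 4 to 6 were 94.9, 113 and 124. Sel1l held 1209.8, 1722 and 1386 normalised counts in wild-type unstimulated libraries 4 to 6, and in the libraries labelled CB2-/- 1019, 953 and 760.3 without stimulus, 907, 1043 and 884 with LPS plus IFNγ, 1093, 917 and 952 after PolyI:C and 1076, 1003 and 1131 after CpG. Herpud1 again rose most with CpG (1.33 ± 0.21), its LPS call (0.63) was lost without CB2-/- unstimulated library 1 or 2 or CB2-/- LPS library 2 or 3 (0.54 to 0.69), and Sel1l overlapped between groups. Edem1 in the libraries labelled CB2-/- stood at 2086, 1909 and 1601 without stimulus, 1745, 2006 and 1542 with LPS plus IFNγ, 1284, 1071 and 1375 after PolyI:C and 1566, 1087 and 1221 after CpG, against 1652, 975 and 1603 in wild-type unstimulated libraries 4 to 6. Derl1 counts labelled CB2-/- were 935, 1181 and 1058 unstimulated, 1249, 1100.2 and 1080.2 with LPS plus IFNγ, 1087, 913 and 948 after PolyI:C and 1223, 1208 and 1157 after CpG, and those of wild-type unstimulated libraries 4 to 6 were 993, 881 and 973. Derl2 held 395, 237 and 248 normalised counts in wild-type unstimulated libraries 4 to 6, and in the libraries labelled CB2-/- 484, 549.6 and 483 without stimulus, 636, 699.8 and 755 with LPS plus IFNγ, 457, 397 and 580.1 after PolyI:C and 684, 683 and 627 after CpG. Of these 3, Derl2 alone was called, with LPS plus IFNγ (0.46 ± 0.17, adjusted p = 0.0462, limma, BH), and the call was lost without any 1 of the 6 compared libraries.

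Atf4 and Ddit3 started higher in these libraries, and fewer ATF4-type genes were called than in wild type. Atf4 in the libraries labelled CB2-/- stood at 1715, 1707 and 1733 without stimulus, 2523, 2475 and 2628 with LPS plus IFNγ, 2100.3, 2018 and 2172 after PolyI:C and 1942, 1894 and 1984 after CpG, against 1297, 983 and 872 in wild-type unstimulated libraries 4 to 6. Ddit3 counts labelled CB2-/- were 366, 349 and 365 unstimulated, 624, 645 and 641 with LPS plus IFNγ, 457, 466 and 484 after PolyI:C and 456, 534 and 479.9 after CpG, and those of wild-type unstimulated libraries 4 to 6 were 141, 249.9 and 204. Atf3 held 737, 989.8 and 856 normalised counts in wild-type unstimulated libraries 4 to 6, and in the libraries labelled CB2-/- 1035, 1261 and 1263 without stimulus, 3387, 3463 and 3286 with LPS plus IFNγ, 1684, 2149 and 2086 after PolyI:C and 3044, 2955 and 2939 after CpG. All stimulated libraries exceeded the unstimulated ones of their genotype for these 3 genes. Log2 changes were 0.56 ± 0.11, 0.29 ± 0.11 and 0.17 ± 0.11 for Atf4, and 0.82 ± 0.17, 0.38 ± 0.17 and 0.44 ± 0.17 for Ddit3, and only the LPS change of each was called, that of Atf4 being 0.27 and not called with quantile scaling. Atf3 was called with all 3, at 1.51 ± 0.16, 0.73 ± 0.16 and 1.33 ± 0.16. Trib3 in the libraries labelled CB2-/- stood at 124, 159 and 137 without stimulus, 351, 414 and 357 with LPS plus IFNγ, 316, 275 and 332 after PolyI:C and 255, 279 and 256 after CpG, against 81.8, 74.9 and 70.7 in wild-type unstimulated libraries 4 to 6. Ppp1r15a counts labelled CB2-/- were 326, 407 and 324 unstimulated, 796, 799 and 782 with LPS plus IFNγ, 404, 482 and 532 after PolyI:C and 683, 756 and 666 after CpG, and those of wild-type unstimulated libraries 4 to 6 were 325, 369.6 and 247. Trib3 did not overlap between stimulated and unstimulated libraries, yet its LPS change (1.42 ± 0.72, adjusted p = 0.18, limma, BH) was called with a pseudocount of 10 (1.36) and not with 1. That SE takes in the spread of all groups, among them wild-type unstimulated libraries 1 to 3 at 0, 51.2 and 12.7. Ppp1r15a rose with LPS plus IFNγ (1.17) and CpG (1.0, lost without CB2-/- unstimulated library 1 or 3 or CB2-/- CpG library 2 (0.94 to 1.11)). Chac1 held 6.32, 4.01 and 2.22 normalised counts in wild-type unstimulated libraries 4 to 6, and in the libraries labelled CB2-/- 7.46, 4.80 and 6.99 without stimulus, 6.78, 8.54 and 4.43 with LPS plus IFNγ, 3.15, 4.87 and 5.09 after PolyI:C and 6.73, 4.92 and 4.58 after CpG. Asns in the libraries labelled CB2-/- stood at 59.7, 36.2 and 33.6 without stimulus, 54.4, 75.9 and 48.7 with LPS plus IFNγ, 39.9, 103 and 54.6 after PolyI:C and 56.6, 90.1 and 69.1 after CpG, against 35.3, 35.8 and 16.3 in wild-type unstimulated libraries 4 to 6. Chac1 stayed under 10 in all 12 libraries, and Asns overlapped between groups.

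Heat shock genes rose with LPS plus IFNγ (8 of 8) and CpG (6 of 8), and between stimuli 4 of 8 were called higher with LPS plus IFNγ and 3 of 8 with CpG than with PolyI:C. Hsp90aa1, Hspa8 and Hsph1 were called in both pairs and Dnaja1 in the first. Hspa1a counts labelled CB2-/- were 44.0, 82.6 and 115 unstimulated, 538, 546 and 486 with LPS plus IFNγ, 97.7, 124 and 159 after PolyI:C and 362, 369 and 362 after CpG, and those of wild-type unstimulated libraries 4 to 6 were 66.4, 14.0 and 38.8. Hspa1b held 64.3, 84.3 and 26.6 normalised counts in wild-type unstimulated libraries 4 to 6, and in the libraries labelled CB2-/- 74.6, 78.8 and 54.5 without stimulus, 342, 361 and 319 with LPS plus IFNγ, 189, 180.1 and 107 after PolyI:C and 240.3, 230.1 and 267 after CpG. For both genes the LPS and CpG libraries lay above all PolyI:C and unstimulated ones. Hspa1a changed by 2.79 ± 0.77, 0.73 ± 0.77 and 2.27 ± 0.77, the last lost without any 1 of the 6 compared libraries, and Hspa1b by 2.30 ± 0.63, 1.16 ± 0.63 and 1.83 ± 0.63. These SEs also take in the spread of wild-type unstimulated libraries 1 to 3, some of them at 0. With a pseudocount of 10 the CpG changes were 2.13 for Hspa1a and 1.70 for Hspa1b, both called. Hsp90aa1 in the libraries labelled CB2-/- stood at 2084, 2387 and 2977 without stimulus, 5648, 5130.4 and 5558 with LPS plus IFNγ, 3973, 3092 and 4465 after PolyI:C and 5625, 6045 and 6111 after CpG, against 2139, 1827 and 1853 in wild-type unstimulated libraries 4 to 6. Hsp90ab1 counts labelled CB2-/- were 7223, 7876 and 7922 unstimulated, 10231, 10781 and 10699 with LPS plus IFNγ, 8510.3, 8925 and 8768 after PolyI:C and 10702, 11269 and 11199 after CpG, and those of wild-type unstimulated libraries 4 to 6 were 7009, 7550.1 and 7220.3. Hspa8 held 8328, 8718 and 8348 normalised counts in wild-type unstimulated libraries 4 to 6, and in the libraries labelled CB2-/- 10035, 10198 and 9275 without stimulus, 16069, 16852 and 16576 with LPS plus IFNγ, 9191, 10035 and 10231 after PolyI:C and 15126, 15302 and 14118 after CpG. Hsp90aa1 was called with all 3 stimuli (1.15, 0.63 and 1.27), the PolyI:C call being lost without CB2-/- unstimulated library 1 or CB2-/- PolyI:C library 3 (0.51 to 0.78), and Hspa8 with LPS plus IFNγ and CpG (0.75 and 0.59). Hsp90ab1 gave 0.46 and 0.53, the first being -0.05 with quantile scaling. Hsph1 in the libraries labelled CB2-/- stood at 526, 525 and 525 without stimulus, 849, 711 and 860.4 with LPS plus IFNγ, 448, 416 and 588 after PolyI:C and 895, 819.9 and 940.1 after CpG, against 480.2, 314 and 372 in wild-type unstimulated libraries 4 to 6. Dnaja1 counts labelled CB2-/- were 1198, 932 and 941 unstimulated, 1604, 1625 and 1461 with LPS plus IFNγ, 1096, 849.8 and 1148 after PolyI:C and 1386, 1404 and 1145 after CpG, and those of wild-type unstimulated libraries 4 to 6 were 906, 595 and 599. Dnajb1 held 289, 224 and 293 normalised counts in wild-type unstimulated libraries 4 to 6, and in the libraries labelled CB2-/- 281, 295 and 278 without stimulus, 439, 446 and 469 with LPS plus IFNγ, 349, 409 and 374 after PolyI:C and 429, 433 and 443 after CpG. These co-chaperones gave 0.61, 0.62 and 0.66 with LPS plus IFNγ, all called. Hspd1 in the libraries labelled CB2-/- stood at 909.7, 805 and 732 without stimulus, 790.3, 922 and 819 with LPS plus IFNγ, 570.3, 693 and 740.0 after PolyI:C and 1235, 1239 and 1153 after CpG, against 707, 450.4 and 586 in wild-type unstimulated libraries 4 to 6. Hspe1 counts labelled CB2-/- were 301, 344 and 325 unstimulated, 264, 265 and 232 with LPS plus IFNγ, 242, 156 and 206 after PolyI:C and 322, 285 and 352 after CpG, and those of wild-type unstimulated libraries 4 to 6 were 220.2, 223 and 297. Hspd1 rose with CpG (0.57 ± 0.16, lost without CB2-/- unstimulated library 3 or CB2-/- CpG library 2 (0.50 to 0.65)), and Hspe1 was not called there (-0.02 ± 0.16). Quantile scaling ended the calls of Pdia3 (0.07), Derl2 (0.35) and Dnaja1 (0.42) with LPS plus IFNγ and of Hspa5 (0.27) and Hsp90b1 (0.21) with PolyI:C in these libraries. Without the series term the same values were not called for Herpud1, Derl2, Hspa1a and Hspa1b with LPS plus IFNγ, Hsp90b1 and Hsp90aa1 with PolyI:C, and Hspa1a with CpG.

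Stimulus pairs within the libraries labelled CB2-/- set PolyI:C apart. LPS plus IFNγ was above PolyI:C for 15 of 37 genes and below for 0 (6.95% and 4.96% of all genes; 1 below at an unadjusted limma p under 0.05), 9 of the 15 being ER chaperones, led by Manf (1.05) and Creld2 (1.01). PolyI:C was above CpG for 0, also at an unadjusted limma p under 0.05, and below for 14 (6.39% and 5.56%), with Herpud1 (-1.11), Hsph1 (-0.88) and Hspd1 (-0.86) the lowest. LPS plus IFNγ against CpG gave 5 higher and 2 lower (6.36% and 3.82%), and 2 to 4 calls without any 1 of the 6 libraries, with 1 higher and 4 lower under quantile scaling. Of the ATF4-type genes 1 of 7, Atf4 (0.39 ± 0.11), was called in that pair, lost without CB2-/- LPS library 1 or 3 or CB2-/- CpG library 1 or 2 (0.37 to 0.41). Hsp90b1, at 0.26, turned to -0.15 with quantile scaling, which also ended the calls of Hspa5 (0.01), Calr (0.07) and Atf4 (0.14) in this pair and of Pdia3 (0.25), Derl2 (0.51), Hsp90aa1 (0.15) and Dnaja1 (0.49) against PolyI:C. Without the series term the same values were not called for Hsp90b1, Creld2, Herpud1 and Hspd1 in LPS against CpG, and for Hsp90aa1 in both pairs with PolyI:C. The PolyI:C against CpG call of Hspa5 (-0.40) was lost without CB2-/- CpG library 1 or 2 or CB2-/- PolyI:C library 2 or 3 (-0.45 to -0.36). That of Calr (-0.44) was lost without CB2-/- CpG library 1 or 2 or CB2-/- PolyI:C library 1 or 3 (-0.54 to -0.39).

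The differences between the responses were tested directly, as the response labelled CB2-/- minus that of wild type. For LPS plus IFNγ 0 of 37 genes were higher (1 at an unadjusted limma p under 0.05) and 18 lower (3.98% and 8.36% of all genes), with a median of -0.57 against -0.02. For PolyI:C 1 was higher and 24 lower (10.8% and 13.9%), with a median of -0.93 against 0.08. For CpG 2 were higher and 13 lower (6.11% and 5.66%), with a median of -0.64 against 0.10. With quantile scaling the LPS difference gave 3 higher and 13 lower. Genotype and number series cannot be told apart here. The plot of both genotypes' responses shows each gene.

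**Figure D4:**
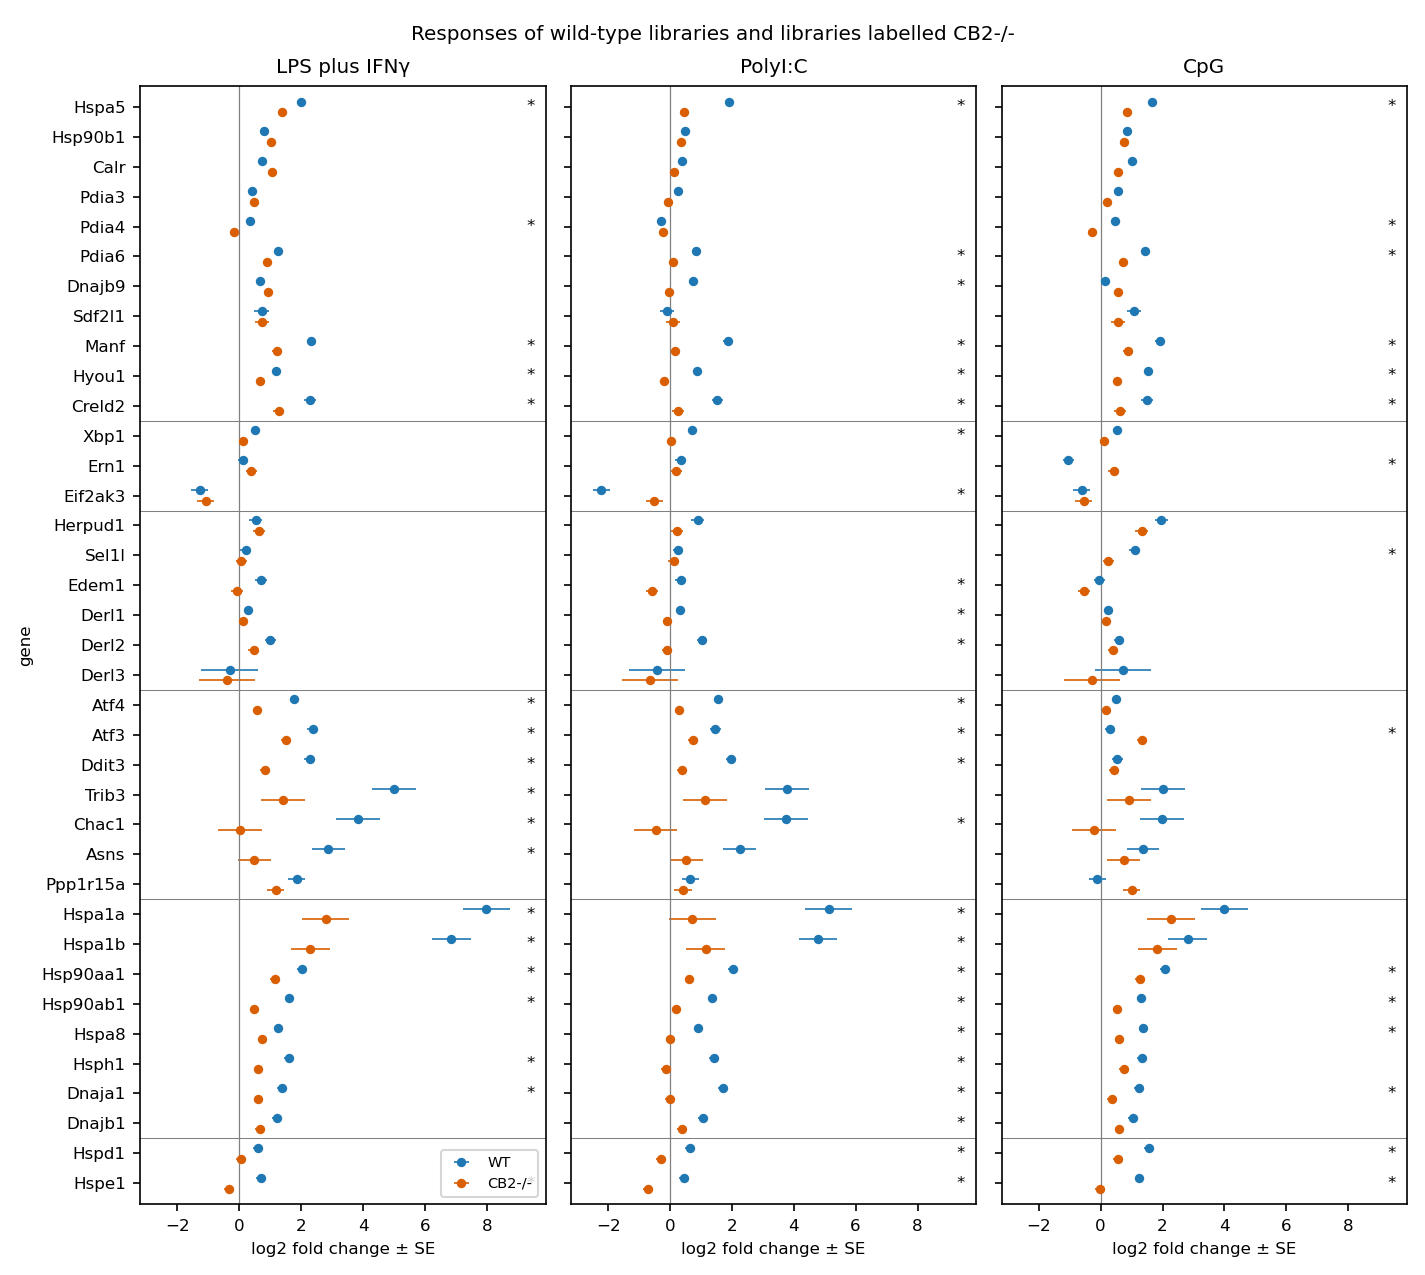
Log2 fold change ± SE of 37 genes with each stimulus, in wild type (blue) and in libraries labelled CB2-/- (orange), with lists parted by lines. An asterisk at the right marks a difference between the responses at an adjusted p under 0.05 (limma, BH), which 18, 25 and 15 genes carry for LPS plus IFNγ, PolyI:C and CpG.

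Among ER chaperones 5, 6 and 6 of 11 differed, all with a negative difference. A negative difference can hold responses of opposite sign, as for Pdia4. With LPS plus IFNγ and CpG it gave 0.34 and 0.46 in wild type and -0.17 and -0.29 labelled CB2-/-. Hspa5 differed by -0.62 ± 0.17, -1.48 ± 0.17 and -0.81 ± 0.17 (adjusted p 0.0140, 3.10e-07 and 0.00195, limma, BH), and for LPS by -0.30, not called, with quantile scaling. Manf differed by -1.11 ± 0.21, -1.70 ± 0.21 and -1.03 ± 0.21, Creld2 by -1.02 ± 0.26, -1.27 ± 0.26 and -0.86 ± 0.26, and Hyou1 by -0.49 ± 0.16, -1.06 ± 0.16 and -1.0 ± 0.16. The LPS call of Hyou1 was lost on leaving out any of 10 from the 12 compared libraries (-0.61 to -0.40) and that of Pdia4 (-0.51) lost on leaving out any of 7 from the 12 compared libraries (-0.66 to -0.39). The CpG call of Creld2 was lost on leaving out any of 8 from the 12 compared libraries (-0.97 to -0.77). Quantile scaling also ended the LPS calls of Pdia4 (-0.41) and Hyou1 (-0.31) and the PolyI:C call of Pdia6 (-0.40). Without the series term the LPS calls of Pdia4 (-0.34), Hyou1 (-0.43) and Creld2 (-0.80) and the CpG call of Creld2 (-0.65) were lost. Hsp90b1 and Calr, abundant chaperones with ER stress response elements, were not called in any of the 3, with Hsp90b1 at 0.23 ± 0.11, -0.10 ± 0.11 and -0.08 ± 0.11 and Calr at 0.35 ± 0.18, -0.28 ± 0.18 and -0.44 ± 0.18. For PolyI:C the Hsp90b1 difference turned to 0.65 with quantile scaling. The stimulated level of Calr with LPS plus IFNγ averaged 5209.8 ± 172 in wild type and 6569 ± 152 (SD, n = 3) labelled CB2-/-.

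ATF4-type genes differed for 6 of 7 with LPS plus IFNγ and 4 of 7 with PolyI:C, all with a negative difference. With CpG 1 was called, with a positive one. Atf4 differed by -1.20 ± 0.15, -1.27 ± 0.15 and -0.31 ± 0.15 (adjusted p 5.95e-06, 8.82e-07 and 0.211, limma, BH). Ddit3 differed by -1.45 ± 0.24, -1.60 ± 0.24 and -0.10 ± 0.24. Atf3 was smaller with LPS plus IFNγ and PolyI:C (-0.85 ± 0.23 and -0.74 ± 0.23) and larger with CpG (1.02 ± 0.23, adjusted p 0.00425, limma, BH). Atf3 with CpG averaged 913 ± 264 in wild type and 2979 ± 56.5 labelled CB2-/- (SD, n = 3). Asns differed by -2.40 ± 0.75 with LPS plus IFNγ, a call lost on leaving out any of 8 from the 12 compared libraries (-3.23 to -1.83), and the PolyI:C call of Atf3 was lost without wild-type unstimulated library 2 or PolyI:C library 2 or 3 or CB2-/- PolyI:C library 1 (-0.89 to -0.59). Chac1 differed by -3.82 ± 1.0 and -4.21 ± 1.0, and by -1.70 and -1.83 with a pseudocount of 10, both called. As it reached 10 in wild-type libraries alone, it passed the filter through the groups where it is high, and its difference is a description that the counts above include. The Atf3 calls were lost with quantile scaling (-0.56 for LPS and -0.32 for PolyI:C), and the latter also without the series term (-0.61). Trib3 differed by -3.59 ± 1.02 with LPS plus IFNγ, by -2.01 without wild-type unstimulated library 1 and by -2.04, not called, without the series term. Trib3 also stood higher with LPS plus IFNγ in the libraries labelled CB2-/- (374 ± 35.0) than in wild type (286 ± 14.5).

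All 8 cytosolic heat shock genes had a negative difference called with PolyI:C, 6 of 8 with LPS plus IFNγ and 4 of 8 with CpG. Hsph1 differed by -1.0 ± 0.22, -1.55 ± 0.22 and -0.59 ± 0.22, Hsp90ab1 by -1.15 ± 0.17, -1.17 ± 0.17 and -0.77 ± 0.17, and Dnaja1 by -0.75 ± 0.22, -1.70 ± 0.22 and -0.87 ± 0.22. For Hspa8 and Hsp90ab1 the PolyI:C differences were -0.10 and -0.36, not called, with quantile scaling. The largest differences, Hspa1a with -5.19 ± 1.08 and -4.41 ± 1.08 for LPS plus IFNγ and PolyI:C, were taken against unstimulated wild-type libraries of which 2 were at 0. The PolyI:C call of Dnajb1 (-0.65) was lost on leaving out any of 9 from the 12 compared libraries (-0.83 to -0.53), and the LPS call of Dnaja1 was lost without wild-type unstimulated library 1 or LPS library 1 or CB2-/- unstimulated library 1 or CB2-/- LPS library 3 (-0.85 to -0.62). With a pseudocount of 10 the Hspa1a differences were -3.0 and -2.24, both called, and with all 6 wild-type unstimulated libraries as the reference (no series term) -3.42 and -2.63, neither called. Hspa1b gave -4.55 ± 0.89 and -3.62 ± 0.89, and -2.77 and -1.84, not called, without the series term. Quantile scaling also ended the calls of Dnaja1 with LPS (-0.48) and Dnajb1 with PolyI:C (-0.57). Without the series term the calls of Hsp90aa1 with LPS (-0.47), Dnajb1 with PolyI:C (-0.56), and Hsp90aa1 (-0.41) and Hsp90ab1 (-0.58) with CpG were lost. With CpG the Hspa1a level averaged 364 ± 3.70 labelled CB2-/- and 47.3 ± 14.3 in wild type (SD, n = 3), although its log2 change was smaller, 2.27 against 4.0.

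Both chaperonins differed with PolyI:C and CpG. Hspd1 gave -0.94 ± 0.22 and -0.99 ± 0.22, and Hspe1 -1.05 ± 0.22, -1.15 ± 0.22 and -1.27 ± 0.22. Against these, Ern1 differed upward with CpG (1.47 ± 0.25, adjusted p 2.74e-04, limma, BH) and Eif2ak3 upward with PolyI:C (1.72 ± 0.39, adjusted p = 0.00174), both sensors that fell in wild type under that stimulus. Xbp1 differed by -0.69 ± 0.14 with PolyI:C, and by -0.34, not called, with quantile scaling. Of the degradation genes Edem1 (-0.93), Derl1 (-0.42) and Derl2 (-1.13) differed with PolyI:C and Sel1l (-0.86) with CpG. The call of Derl1 was lost on leaving out any of 8 from the 12 compared libraries (-0.52 to -0.29) and that of Sel1l lost on leaving out any of 6 from the 12 compared libraries (-1.0 to -0.61). With quantile scaling the PolyI:C calls of Edem1 (-0.43), Derl1 (-0.05) and Hspd1 (-0.65) were lost, and without the series term the CpG call of Sel1l (-0.60).

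Without stimulus 9 of 37 genes were higher and 1 lower in the libraries labelled CB2-/- than in wild-type libraries 4 to 6, against 6.25% and 3.65% of all genes, with a median of 0.37 against -0.05. Libraries labelled CB2-/- are numbered within 2048 to 2059 and these wild-type ones 2186 to 2188. Genotype and run of numbers therefore cannot be told apart here either. Ddit3 (0.90 ± 0.17, adjusted p 8.26e-04), Derl2 (0.82 ± 0.17), Atf4 (0.73 ± 0.11, adjusted p 6.11e-05), Dnajb9 (0.63 ± 0.13) and Xbp1 (0.57 ± 0.10, adjusted p 5.75e-04) led (limma, BH). Dnaja1 (0.57), Manf (0.54), Hspd1 (0.51) and Hyou1 (0.48) were also higher, and Sel1l was lower (-0.65 ± 0.18). No overlap between the 3 and 3 libraries was seen for any of the 10, which were picked by a call on these same values. It is therefore no further support, and the share of all genes without overlap was not computed. The Hspd1 call was lost on leaving out any of 5 from the 6 compared libraries (0.34 to 0.66) and the Manf call lost without CB2-/- unstimulated library 1 or 2 or wild-type unstimulated library 5 (0.47 to 0.62). The Dnaja1 call was lost without CB2-/- unstimulated library 1 or wild-type unstimulated library 5 or 6 (0.45 to 0.77) and the Sel1l call lost without CB2-/- unstimulated library 3 or wild-type unstimulated library 5 (-0.77 to -0.52). A fit with only the compared libraries called 3, and 16 were called without the series term, though not Sel1l (-0.39) and Hspd1 (0.34).

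Several of these genes also differed between the 2 number series of wild-type unstimulated libraries. Libraries 4 to 6 were higher than 1 to 3 for 6 of 37 genes and lower for 5 (6.33% and 5.66% of all genes). Hspa1a (3.55 ± 0.77), Hspa1b (3.56 ± 0.63), Trib3 (3.10 ± 0.72) and Hsp90aa1 (0.79 ± 0.15) were the highest. Herpud1 (-0.94 ± 0.21), Xbp1 (-0.43 ± 0.10), Hspa8 (-0.39 ± 0.12), Hsp90b1 (-0.38 ± 0.08) and Pdia3 (-0.35 ± 0.12) were lower. Atf4 (0.07 ± 0.11) and Hspa5 (0.09 ± 0.12) were not called (limma, BH). Leaving out 1 library moved the count between 6 (library 5) and 13 (library 2 or 4). The Pdia3 call was lost on leaving out any of 5 from the 6 compared libraries (-0.48 to -0.28), that of Hspa8 lost on leaving out any of 5 from the 6 compared libraries (-0.50 to -0.28) and that of Xbp1 lost without wild-type unstimulated library 5 (-0.51 to -0.30).

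Other genes of these pathways, in 5 lists that exclude the 37, moved in part with the stimuli in wild type. Of 33 further ER folding and sensor genes 16 rose and 7 fell with LPS plus IFNγ, 16 and 9 under PolyI:C, and 21 and 2 under CpG. Of all genes 21.7% rose and 18% fell with LPS plus IFNγ, 21.2% and 19.9% under PolyI:C, and 16.5% and 19.6% under CpG. The falls in this list were near or below these shares. Ero1l, the oxidase that recharges disulfide isomerases, rose most with the first 2 (2.79 and 2.25), followed by Ssr3 (1.09) of the translocon-associated complex and the channel subunit Sec61a1 (1.07). The coat protein gene Sec24d (1.93) and Pdia5 (1.76) were highest with CpG. Lowest were Creb3l2 (-1.53) and Mbtps2 (-1.20) with LPS, Ero1lb (-1.22 and -0.65) with PolyI:C and CpG, Mbtps1 (-0.91) with PolyI:C and Crebrf (-1.83) with CpG. Mbtps1 and Mbtps2 are the proteases that release ATF6.

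Further integrated stress genes gave 22 of 37 higher and 4 lower with LPS plus IFNγ, 16 and 6 under PolyI:C, and 14 and 7 under CpG. Here too the falls were near or below the shares of all genes in wild type. Mthfd2, a mitochondrial folate enzyme and ATF4 target, rose by 3.06 and 2.76, and the cytokine Gdf15 by 3.20 with LPS. Nupr1, a stress-induced chromatin protein, rose by 2.97 with PolyI:C, and the amino acid transporters Slc7a5 (2.52) and Slc7a1 (2.45) led with CpG. The glutamine transporter Slc1a5 (-3.55 and -2.74) and Eif2ak4, the amino acid sensing kinase GCN2 (-1.03 and -1.23), fell most with LPS plus IFNγ and PolyI:C. Pmaip1 (-1.92) and Cebpg (-1.78) fell most with CpG. In the libraries labelled CB2-/- 8 rose and 3 fell, 4 and 1, and 7 and 1, in the same order, with Nupr1 at 2.61, 1.12 and 1.70 and Mthfd2 at 0.51, 0.45 and 0.50. Of all genes 12.8% rose and 10.9% fell there, 5.11% and 3.44%, and 6.82% and 7.44%.

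Among 16 further degradation genes 8 rose and 2 fell, 8 and 1, and 7 and 3, with LPS plus IFNγ, PolyI:C and CpG in wild type. The falls were near or below the shares of all genes given above. Faf2 (1.10) and the ubiquitin ligase Syvn1 (1.07) were highest with LPS, Nploc4 (1.19) and Selenos (1.18) with PolyI:C, and Selenos (1.42) and the segregase Vcp (0.96) with CpG. Lowest were Edem3 (-0.52 and -0.51) and Os9 (-0.32), and with CpG Edem2 (-1.13) and Herpud2 (-1.02).

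Of 35 further cytosolic chaperone genes 15 rose with LPS plus IFNγ, 15 rose and 1 fell under PolyI:C, and 19 rose under CpG. Among all genes 21.7%, 21.2% and 16.5% rose with these stimuli. Stip1, which links Hsp70 to Hsp90, rose by 1.58, 1.52 and 1.82. Hspa4l, an Hsp110 relative, rose by 2.24 with LPS plus IFNγ and was at -0.32 and -0.29, not called, with the others, the Hsp90 partner Ptges3 by 1.17 with PolyI:C and the chaperonin subunit Cct3 by 1.8 with CpG. Fkbp4 fell with PolyI:C (-0.47), and the smallest rises called were Tcp1 (0.54) and Dnajb4 (0.63) with LPS, Cct2 (0.39) with PolyI:C, and Bag1 (0.32) and Cdc37 (0.46) with CpG. Of 12 mitochondrial chaperones and proteases 5, 4 and 7 rose, against the same shares of all genes. Hspa9, the mitochondrial Hsp70, gave 1.16, 0.73 and 1.05, and its exchange factor Grpel1 1.18, 0.94 and 0.52. Dnajc19 (0.84) was also high with CpG, and Trap1 (0.36), Yme1l1 (0.59) and Lonp1 (0.46, 0.57 and 0.32) were the smallest rises.

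Markers of cell types were also compared. Of all genes in wild type 21.7%, 21.2% and 16.5% rose with LPS plus IFNγ, PolyI:C and CpG, and 18%, 19.9% and 19.6% fell. With so few markers in a list, counts of 1 or 2 cannot be set apart from such shares. Of 8 fibroblast and meningeal markers 1 fell with each stimulus in wild type, and their summed level was 5147 to 32157 in unstimulated libraries 1 to 3, 1759 to 2708 with LPS plus IFNγ, 238 to 2728 with PolyI:C and 641 to 8285 with CpG. It was 38079 to 60879 in wild-type unstimulated libraries 4 to 6 and 13548 to 14765 in the unstimulated libraries labelled CB2-/-. Of 9 astrocyte markers 8 were tested, and 2 rose with LPS plus IFNγ in wild type. Their sum was 150 to 1079 in unstimulated libraries 1 to 3, 702 to 864 with LPS plus IFNγ, 1523 to 2428 in libraries 4 to 6 and 152 to 230 labelled CB2-/- without stimulus, where 1 was called lower. Monocyte and neutrophil markers summed to 30.0 to 45.2 unstimulated and to 77.5 to 399 in stimulated wild-type libraries, with 3, 3 and 2 of 4 tested being higher, and 5 of their 7 markers were at 0 in unstimulated libraries 1 to 3. All 11 microglial markers compared were above 0 in every group, and 9, 10 and 9 of them fell with LPS plus IFNγ, PolyI:C and CpG in wild type. In the libraries labelled CB2-/- 9, 5 and 8 fell, and in the difference between the responses 3, 8 and 2 were higher and 1 was lower, with CpG. The summed microglial level was 111331 to 129671 in wild-type unstimulated libraries 1 to 3. It was 53593 to 77948 in libraries 4 to 6 and 51659 to 56967 labelled CB2-/- without stimulus. Between the 2 number series 6 of the 11 were lower in libraries 4 to 6 and 0 higher (5.66% and 6.33% of all genes). Of 7 oligodendrocyte markers tested 2 fell with every stimulus in wild type, where the summed level was 1065 to 1236 in unstimulated libraries 1 to 3 and 163 to 671 in stimulated ones. Labelled CB2-/- 2, 1 and 2 of these fell. The part of these markers in the changes of the stress genes was not tested.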

How the data were processed

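Bulk RNA sequencing of 27 libraries was analysed from the normalised counts that the authors deposited, a signal table of 23995 genes. The tools CASAVA 1.8, kallisto and DESeq2 are listed, per the submitters' processing notes, without their order or task, and the genome build is not given in the sources used here. A batch-corrected table on a log2 scale, which the authors deposited with no statement of the batches removed, served only as an alternative. At most 60.3% of low values in a library were whole multiples of 1 step (tolerance 0.01), so reads were not recovered, and no count test was run.

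The 14668 genes that reached 10 in 3 or more libraries were tested as log2(value + 1) with limma 3.58.1 in R 4.3.3, in 1 fit of all 27 libraries with terms for group and number series, and called at a Benjamini-Hochberg adjusted p under 0.05. The fit was tested on simulated data. Figures and summaries used Python 3.11.15, pandas 2.3.3 and matplotlib 3.10.9. Gene positions are from GENCODE M21 (GRCm38), which matched 23950 of 23995 identifiers, and promoters from RefSeq (GRCm38.p6). Replicates correlated at r of at least 0.903 across genes, and no 2 libraries were identical.

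The 37 genes and all lists were chosen with earlier results of these data known. Values in every library are given for the members with the 3 largest changes called in each list, for members called between genotypes, and for Xbp1, Ddit3, Hspa5 and Hspa1a. Of the other-gene lists, the 2 highest and 2 lowest called changes with each wild-type stimulus are named. Other genes named were picked after their values were seen. The alternatives changed the scaling, the filter, the pseudocount, the table, the variance model, library weights, the series term and which libraries entered.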

Additional observations from a re-analysis of the deposited data

Results flagged for a closer look

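Asns in wild-type unstimulated library 2 stood apart from the other 5 libraries of its group, at 102 normalised counts (101.781) against 13.7 to 35.8. The gap was 0.749 of the range of the 6, above the critical value of Dixon's test. Among 37 genes tested in this group 1 was marked, and chance marks about 1 group in 20.

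Responses differed between the genotypes by the test of the difference itself, the log2 change labelled CB2-/- minus that of wild type (limma, BH), for 18, 25 and 15 genes with LPS plus IFNγ, PolyI:C and CpG. Number series and genotype cannot be told apart in them. Chac1, counted for LPS plus IFNγ and PolyI:C, passed the filter through wild-type libraries alone, so its differences are a description. Responses are listed as smaller where the difference was negative, also where the responses had opposite signs. With LPS plus IFNγ, wild type first, Pdia4 gave 0.34 and -0.17 and Hspe1 0.70 and -0.35. The response to LPS plus IFNγ was smaller for Hspa5 (-0.62), Pdia4 (-0.51), Manf (-1.11), Hyou1 (-0.49), Creld2 (-1.02), Atf4 (-1.20), Atf3 (-0.85), Ddit3 (-1.45) and Trib3 (-3.59). It was also smaller for Chac1 (-3.82), Asns (-2.40), Hspa1a (-5.19), Hspa1b (-4.55), Hsp90aa1 (-0.87), Hsp90ab1 (-1.15), Hsph1 (-1.0), Dnaja1 (-0.75) and Hspe1 (-1.05). PolyI:C gave smaller responses for Hspa5 (-1.48), Pdia6 (-0.76), Dnajb9 (-0.78), Manf (-1.70), Hyou1 (-1.06), Creld2 (-1.27), Xbp1 (-0.69) and Edem1 (-0.93). Smaller too with PolyI:C were Derl1 (-0.42), Derl2 (-1.13), Atf4 (-1.27), Atf3 (-0.74), Ddit3 (-1.60), Chac1 (-4.21), Hspa1a (-4.41) and Hspa1b (-3.62). The list for PolyI:C ends with Hsp90aa1 (-1.41), Hsp90ab1 (-1.17), Hspa8 (-0.90), Hsph1 (-1.55), Dnaja1 (-1.70), Dnajb1 (-0.65), Hspd1 (-0.94) and Hspe1 (-1.15). With CpG the smaller responses were those of Hspa5 (-0.81), Pdia4 (-0.74), Pdia6 (-0.70), Manf (-1.03), Hyou1 (-1.0), Creld2 (-0.86) and Sel1l (-0.86). CpG also gave smaller responses for Hsp90aa1 (-0.80), Hsp90ab1 (-0.77), Hspa8 (-0.76), Dnaja1 (-0.87), Hspd1 (-0.99) and Hspe1 (-1.27). The difference was positive for Eif2ak3 (1.72) with PolyI:C and for Ern1 (1.47) and Atf3 (1.02) with CpG. Of these, Eif2ak3 and Ern1 had fallen in wild type under that stimulus (-2.22 and -1.04). Labelled CB2-/-, Eif2ak3 counts were 153, 158 and 128 with PolyI:C against 174, 182 and 279.5 unstimulated, lower without a call. Ern1 did not fall there with CpG (0.43, not called).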

How the results depend on the processing

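Of the 37 genes, the number called was recomputed under 13 alternatives and with each of 27 libraries left out. Shares of all genes called were computed for the main fit only. Counts under other settings, here and above, therefore cannot separate a change in these genes from a general change in calling. Counts are given where they moved by more than 1.5 times. A log2 change of at least 1 beside the adjusted p left, with LPS plus IFNγ, PolyI:C and CpG, 11, 0 and 4 calls labelled CB2-/- and 11, 16 and 4 differences, and in wild type 22 with LPS plus IFNγ and 18 with PolyI:C. It left 0 between unstimulated genotypes, 3 between number series, and 3, 11 and 8 for LPS plus IFNγ against PolyI:C, LPS plus IFNγ against CpG and PolyI:C against CpG in wild type, with 2, 0 and 1 labelled CB2-/-.

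Library weights gave 8 for PolyI:C and 28 for CpG labelled CB2-/-, 18 for LPS against PolyI:C in wild type, 15 for LPS against CpG labelled CB2-/- and 19 between series. The batch-corrected table gave 9 for PolyI:C labelled CB2-/-, 23 between unstimulated genotypes, 23 for LPS against PolyI:C labelled CB2-/- and 0 between series. Without the series term these were 3 for PolyI:C labelled CB2-/-, 16 between genotypes and 3 for LPS against CpG labelled CB2-/-. Fitting only the compared libraries gave 3 between genotypes, 13 for PolyI:C against CpG in wild type, 23 and 16 for LPS against PolyI:C and against CpG labelled CB2-/-, and 1 between series. Leaving out the first wild-type unstimulated, PolyI:C and CpG libraries together gave 9 for PolyI:C labelled CB2-/- and 18 between genotypes. The cause was not tested.

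With 1 library left out the counts ran from 2 to 4 for LPS against CpG labelled CB2-/-, 5 to 11 for LPS against PolyI:C in wild type and 6 to 13 between series. For the other main comparisons they ran from 29 to 34, 27 to 30 and 26 to 31 (wild type), 21 to 24, 4 to 4 and 14 to 17 (labelled CB2-/-), 14 to 19, 22 to 26 and 13 to 17 (differences) and 7 to 11 (unstimulated).

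Quantile scaling turned 16 changes. They were, in wild type with LPS plus IFNγ, Hsp90b1 (-0.21), Calr (-0.21), Pdia3 (-0.45) and Derl1 (-0.15), and with PolyI:C Hsp90b1 (-0.43), Calr (-0.47), Pdia3 (-0.55), Derl1 (-0.13) and Hspa8 (-0.028). Hsp90ab1 turned with LPS plus IFNγ labelled CB2-/- (-0.053), Hsp90b1 in the PolyI:C difference (0.65) and in LPS against CpG labelled CB2-/- (-0.15). In wild type Hspa5 and Hsp90ab1 turned in LPS against CpG (-0.42 and -0.47) and in PolyI:C against CpG (-0.46 and -0.75). The median of all genes moved with it from 0.05 to -0.06 (LPS plus IFNγ), from -0.09 to 0.05 (CpG), from 0.10 to -0.02 (the CpG difference), from 0.15 to -0.13 (LPS against CpG) and from 0.02 to -0.13 (PolyI:C against CpG), wild type throughout except the difference.

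No paired analysis was possible because the labels number libraries and give groups no shared replicate number. Precision is limited by 3 libraries a group, by levels near 0 for Hspa1a, Hspa1b, Trib3 and Chac1 before stimulation, and by a read depth that normalised counts do not keep.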
